A study of Mus musculus with 12 samples.

Results

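Nucb1 and Nucb2, the 2 nucleobindin genes of the mouse, were followed in liver RNA of germ-free males that had received growth hormone or saline. They were found by gene symbol among 38087 genes in a table of exonic read counts, and both were among the 14235 genes abundant enough to be tested. The pair was chosen by a measured value, the higher Nucb2 level after growth hormone, so the difference of either gene between the groups is given as a description and without a test. Nucb1 was taken with it as its only paralogue.

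All mice were male C57BL/6j animals of 13 to 16 weeks, raised without microorganisms, and all livers were taken at ZT 2, that is 2 h after lights on. For 5 days they were injected under the skin at ZT 2 and ZT 14 with recombinant human growth hormone, at a stated 50 µg per mouse (GH, 6 libraries), or with phosphate-buffered saline (PBS, 6 libraries). Samples carry a number per group in the labels, which do not say how the animals were drawn, so the errors given here are the spread between these samples. The hormone was the human protein given to mice, and human growth hormone also binds the prolactin receptor.

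Nucleobindins are EF-hand calcium-binding proteins of the secretory pathway. Nucleobindin 1, also called CALNUC, is a resident of the Golgi lumen that stores calcium and binds G protein alpha subunits. Nucleobindin 2, also called NEFA, has the same layout and is in addition the precursor from which prohormone convertases release nesfatin-1, a peptide known from rats as a signal that lowers food intake. Growth hormone acts on hepatocytes by way of JAK2, the kinase bound to its receptor, and STAT5B, a transcription factor.

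Both genes lie on mouse chromosome 7 of the mm10 assembly, 71.0 Mb apart between their start sites in the GENCODE M21 annotation. Nucb1 spans 45490458 to 45510406 on the minus strand. Nucb2 spans 116504369 to 116540584 on the plus strand. The main annotated transcript of Nucb1 has 13 exons and codes for 459 amino acids, and that of Nucb2 has 14 exons and codes for 420. No run of 50 bases was shared between annotated transcripts of the genes or with those of any other gene, and the longest identical run between the main transcripts was 14 bases. The only gene whose span overlapped a member was Tulp2, on the strand opposite to Nucb1, and it shared 0 exonic bases with it.

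The start regions of both genes are shown because the paralogues differed in level and in their difference between GH and PBS. Each window runs from 250 bases before to 50 bases after the RefSeq start site (GRCm38.p6), 5′ to 3′ on the strand of the gene, with CCAAT in capitals.
Nucb1, chr7:45510359-45510658, minus strand: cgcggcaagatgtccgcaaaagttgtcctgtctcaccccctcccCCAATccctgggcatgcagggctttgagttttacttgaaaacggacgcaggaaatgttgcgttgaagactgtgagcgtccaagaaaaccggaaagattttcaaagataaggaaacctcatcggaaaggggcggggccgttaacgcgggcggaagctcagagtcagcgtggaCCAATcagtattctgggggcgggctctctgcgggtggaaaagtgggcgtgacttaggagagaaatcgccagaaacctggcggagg
Nucb2, chr7:116504119-116504418, plus strand: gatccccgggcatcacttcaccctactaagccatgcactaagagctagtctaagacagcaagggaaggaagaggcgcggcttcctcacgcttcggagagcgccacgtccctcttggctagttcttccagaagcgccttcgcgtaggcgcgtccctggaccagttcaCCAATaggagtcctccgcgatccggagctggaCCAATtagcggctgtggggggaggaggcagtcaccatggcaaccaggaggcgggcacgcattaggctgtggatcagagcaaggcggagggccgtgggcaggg

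Each window held 20 CpG dinucleotides, more than 73.5% of 32851 such windows (median 7), and 2 matches to CCAAT on either strand. The GC content was 55.3% for Nucb1 and 62.0% for Nucb2, against a median of 52.7%. In Nucb1 the CCAAT matches began 206 and 35 bases before the start site, and in Nucb2 84 and 52 bases before it. CCAAT was present in 37.4% of all windows. The windows of the pair also differed in the GC box GGGCGG, with 3 matches on either strand in Nucb1 and 0 in Nucb2, against 35.7% of windows with at least 1. None of these matches overlapped a CCAAT match. The STAT5 motif TTCNNNGAA, which reads alike on both strands, was in neither window and in 8.3% of all windows, and the ER stress element, CCAAT and CCACG 9 bases apart, was in neither and in 0.119%. A match is a string of letters and not a measured site, and no match says only that these letters are not in these 300 bases.

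Library totals ran from 19523104 to 23278931 counts. In the test across all genes (edgeR, adjusted p under 0.05) 682 of 14235 genes passed, which is 4.79%, with 323 (2.27%) higher and 359 (2.52%) lower in GH; with libraries scaled by their totals alone these were 211 higher and 658 lower. An unadjusted p under 0.05 was found for 2702 genes, or 19.0%, and DESeq2 called 1072 of the 13953 genes to which it gave an adjusted p, or 7.68%. The targets by which GH action is usually judged, Socs2, Cish and Igf1, were lower in the libraries labelled GH. Socs2 went from 13.8 ± 7.51 to 1.32 ± 0.284 CPM (counts per 1e6 counts, scaled by TMM). Cish went from 7.53 ± 7.56 to 0.61 ± 0.337 CPM and Igf1 from 493 ± 51.6 to 310 ± 60.6 CPM (SD, n = 6). All of them are known as genes that growth hormone induces. Injections were at ZT 2 and ZT 14 and sampling at ZT 2, but the labels do not state the time from the last injection to sampling. All directions below, also where a gene is said to rise or fall, are between libraries as labelled. PBS replicate 5 and GH replicate 6 lay farthest from the centres of their groups on the first 3 principal components, at distances of 23.9 and 24.6, against 4.58 to 17.1 for the other 10 libraries.

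Nucb2 was scarce in the PBS livers and higher in every GH liver. Its counts after PBS were 59, 48, 66, 73, 84 and 64 in replicates 1 to 6, and after GH 301, 387, 243, 319, 247 and 221. Scaled to library size by TMM, the PBS values were 2.55, 2.25, 3.19, 3.66, 3.90 and 2.74 CPM. The GH values were 15.8, 19.3, 11.8, 14.6, 11.7 and 9.71 CPM. The groups did not overlap, which was also the case for 3.18% of all tested genes, and the lowest GH library, replicate 6, was 2.49 times the highest PBS library, replicate 5. These libraries are also those that lay farthest from their groups.

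The mean Nucb2 level was 3.05 ± 0.648 CPM in PBS and 13.8 ± 3.46 CPM in GH (SD, n = 6). The log2 fold change was 2.18 ± 0.18 (SE), or 4.53-fold with a 95% interval of 3.50 to 5.86. Nucb2 was thus among the 2.27% of tested genes that were higher, as its choice required, and it ranked 12 among the tested genes by log2 fold change. Without GH replicate 6 the log2 fold change was 2.26, without GH replicate 2, the highest library, it was 2.06, and without PBS replicate 5 and GH replicate 6 together it was 2.34. In whole tissue, more RNA per cell and more cells that carry the RNA cannot be told apart.

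Nucb1, the Golgi paralogue, was abundant and nearly level. Its counts after PBS were 2428, 2050, 2009, 1720, 2078 and 2294 in replicates 1 to 6, and after GH 2112, 2105, 2069, 2224, 2337 and 2200. The PBS values were 105, 96.2, 97.1, 86.3, 96.6 and 98.1 CPM. The GH values were 111, 105, 101, 101, 111 and 96.7 CPM. The groups overlapped: GH replicates 3, 4 and 6 lay inside the PBS range, and GH replicate 2 was level with its top at 105 CPM. PBS replicates 1, 3 and 6 lay inside the GH range. The means were 96.6 ± 6.02 CPM in PBS and 104 ± 5.63 CPM in GH (SD, n = 6), with a log2 fold change of 0.11 ± 0.06 (SE) and a 95% interval of -0.02 to 0.24. The upper end of that interval is a 1.18-fold difference, while the lower end of the Nucb2 interval is 3.50-fold.

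**Figure D1:**
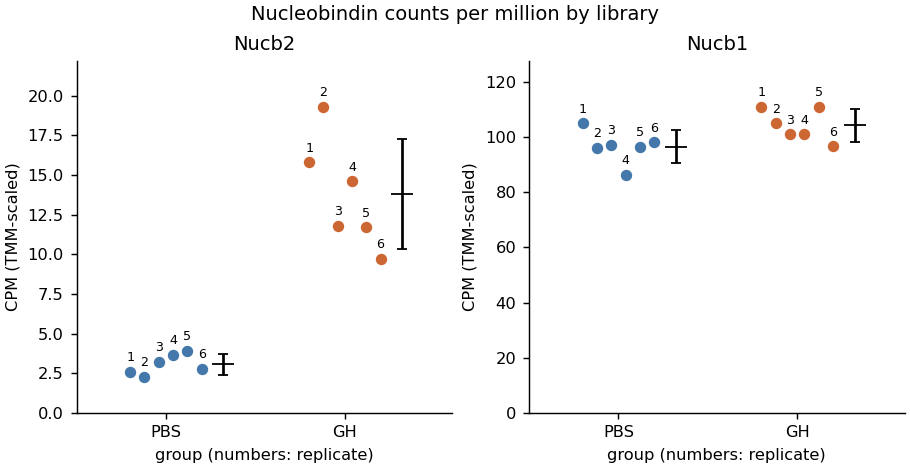
CPM after TMM scaling (vertical axes, from 0) of Nucb2 and Nucb1 in each library by group; points are libraries with their replicate numbers, bars are the mean and SD of 6. The 6 GH points of Nucb2 lie between 9.71 and 19.3, all above the PBS points at 2.25 to 3.90, while the Nucb1 points of both groups share the range from 96.7 to 105.

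The balance between the genes moved with Nucb2. Reads of Nucb2 per 100 reads of Nucb1 were 2.34 to 4.24 in PBS, with a mean of 3.19 ± 0.813, and 10 to 18.4 in GH, with a mean of 13.2 ± 3.11 (SD, n = 6). The log2 ratio within a library differed between the group means by 2.02. In both groups Nucb1 was the more abundant gene in every library. Per kilobase of the main transcript (1685 bases for Nucb2 and 4853 for Nucb1), the level of Nucb2 was 9.18 ± 2.34% of that of Nucb1 in PBS and 38.1 ± 8.95% in GH. With all annotated exonic bases as the length these shares were 11.2 ± 2.86% and 46.6 ± 10.9%, and with coding bases alone 3.48 ± 0.888% and 14.5 ± 3.40%. Since the labels do not name the annotation that the authors counted on, the level per length is known only within that spread.

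Against all genes with an annotated length, Nucb2 stood low in PBS and above the middle in GH. At 1.81 ± 0.385 CPM per kilobase of the main transcript in PBS it was above 29.1% of 14000 tested genes, and at 8.20 ± 2.05 in GH above 65.2%. Nucb1 stood high in both, at 19.9 ± 1.24 CPM per kilobase in PBS (above 82.2% of genes) and 21.5 ± 1.16 in GH (above 83.3%). Using all exonic bases moved these positions to 29.4% and 66.6% for Nucb2 and to 79.6% and 81.1% for Nucb1. A shorter coding transcript of Nucb1, of 2111 bases, is also annotated. Its use would raise the Nucb1 level per kilobase, and the position by that length was not computed.

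**Figure D2:**
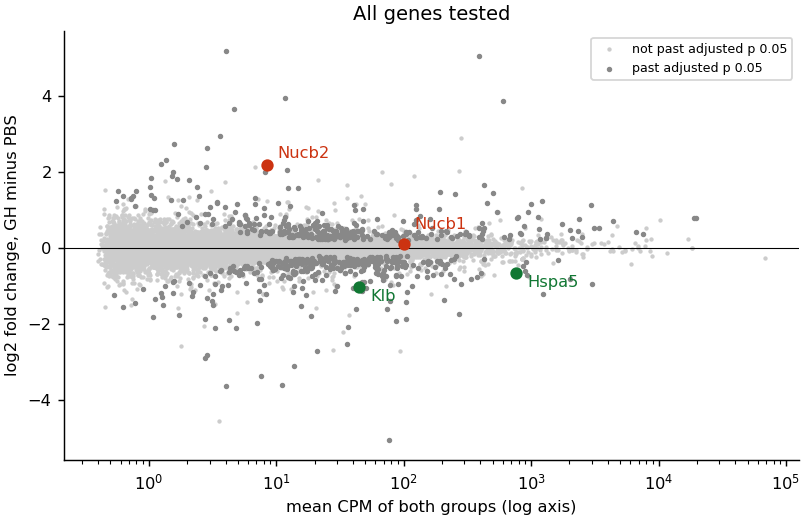
Log2 fold change of GH minus PBS (vertical axis) against the mean CPM of both groups (horizontal log axis) for the 14235 tested genes; darker points passed an adjusted p of 0.05. Nucb2 lies at 2.18, above most genes of like level, and Nucb1 at 0.11, inside the main band; Klb and Hspa5, described with the related genes, are also marked.

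The spread among livers also separated the genes. The coefficient of variation of the Nucb2 level was 21.3% in PBS and 25% in GH, while counting error alone would give 12.3% and 5.91%. For Nucb1 it was 6.23% in PBS and 5.41% in GH, with 2.18% and 2.14% from counting. The biological coefficient of variation fitted by edgeR, which is drawn towards that of other genes, was 0.199 for Nucb2 and 0.101 for Nucb1. The common value for all genes was 0.168. For Nucb1 the fitted value lay above the observed spread, so it is not a measure of that spread. Within groups no relation between the genes passed a test. Between log2 CPM of Nucb1 and Nucb2, Pearson's r was -0.53 in PBS and 0.46 in GH, and Spearman's rho was -0.31 and 0.54. The two-sided exact permutation p was 0.276 and 0.369 for r, and 0.564 and 0.297 for rho (n = 6 each), and the lowest of the 4 values after Benjamini-Hochberg adjustment was 0.493. Without the 2 libraries farthest from the median of Nucb1, r was 0.02 in PBS and 0.97 in GH on 4 libraries each, so neither coefficient was stable.

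Markers of other cells and tissues were set beside Nucb2, which is known from pancreatic islets, gastric mucosa and fat as well as brain. Islet markers were almost absent: Ins1, Ins2, Gcg and Chga had 0 counts in all 12 libraries, and the sum over 7 markers was at most 0.0939 CPM in PBS and 0.146 CPM in GH. Of 10 exocrine pancreas markers 6 were at 0 (Cela3b, Cpb1, Pnlip, Prss2, Ctrb1 and Cel), and the sum, nearly all of it Cela1, was 16.3 to 23.3 CPM in PBS and 9.23 to 22.7 CPM in GH. Of 8 gastric markers Gkn1 and Pgc were at 0 and the sum, mostly Atp4a, was 0.704 to 4.09 CPM in PBS and 1.89 to 5.49 CPM in GH. The adipocyte sum (6 markers, Lep at 0) was 6.06 to 8.93 CPM in PBS and 5.36 to 8.17 CPM in GH. Only Cela1, Atp4a and 1 adipocyte marker were abundant enough to be tested. None of them passed in edgeR (4.79% over all tested genes) or DESeq2 (7.68%), and none had an unadjusted p under 0.05 (19.0%). The other markers of these 4 tissues were too scarce for a test.

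Among cells of the liver itself, the sums of the 8 hepatocyte markers were 95900 to 113000 CPM in PBS and 76600 to 102000 CPM in GH, with all 8 detected, 0 passing in edgeR, 2 passing in DESeq2 (7.68% over all genes) and 4 with an unadjusted p under 0.05 (19.0% over all). Albumin (Alb) was the largest part of these sums, at a mean of 74900 CPM in PBS and 62500 CPM in GH. Its share of all counts was 7.63 ± 0.598% in the PBS libraries and 6.11 ± 0.620% in those of GH (SD, n = 6). The sums of 8 markers each were 228 to 343 and 235 to 302 CPM for Kupffer cells and macrophages, and 360 to 464 and 361 to 456 CPM for sinusoidal endothelium. They were 372 to 428 and 344 to 411 CPM for stellate cells and fibroblasts. The 7 cholangiocyte markers summed to 33.0 to 56.1 CPM in PBS and 34.1 to 51.9 CPM in GH, the 8 lymphocyte markers to 1.11 to 3.25 and 1.66 to 2.72 CPM, and the 7 neutrophil markers to 1.93 to 4.92 and 1.21 to 4.01 CPM. These ranges overlapped between the groups for every list. Of all tested markers only Dcn, a stellate cell proteoglycan gene, passed in edgeR (lower, log2 fold change -0.38, edgeR adjusted p = 0.00296), against 4.79% of all tested genes. In DESeq2 1 stellate cell marker and 1 cholangiocyte marker passed as well (7.68% over all). An unadjusted p under 0.05 was found for 2 stellate cell markers and for 1 Kupffer cell, 1 endothelial and 1 cholangiocyte marker (19.0% over all). The tested markers were 8 each for Kupffer cells, endothelium and stellate cells, 6 for cholangiocytes and 2 for neutrophils. For hepatocyte markers the counts in DESeq2 and by unadjusted p lay above the shares over all genes. Calls this few are not a result about cell composition. The part of the lower albumin share in the Nucb2 difference was not tested.

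The nearest relatives in cell biology are the CREC family of EF-hand proteins in the secretory pathway, with log2 fold changes from -0.25 to 0.21. Of its 5 members, all tested, 1 rose and 4 did not pass, against 4.79% of all tested genes that passed. A single call among 5 genes is not a result about the family. The median log2 fold change was -0.09, with 0.00 over all genes. Sdf4, which encodes the Golgi calcium-binding protein Cab45, rose from 101 ± 3.20 to 117 ± 3.51 CPM (SD, n = 6, log2 fold change 0.21 ± 0.05 SE, adjusted p = 0.0258). Its groups, 95.5 to 105 and 113 to 123 CPM, did not overlap, as for 3.18% of all tested genes. Leaving out single libraries ended this call in 5 of 12 refits (PBS replicates 4 and 6 and GH replicates 1, 3 and 5, highest adjusted p 0.0649). The call also ended with libraries scaled by their totals (log2 fold change 0.15, adjusted p = 0.0955), with no filter on low counts (0.143) and with the replicate number as a block (0.0954). Calu, which encodes calumenin, had 132 ± 14.3 CPM in PBS and 128 ± 10.8 CPM in GH, and the reticulocalbin gene Rcn1 had 8.50 ± 1.80 and 7.91 ± 1.10 CPM.

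Other EF-hand genes of the endoplasmic reticulum, Golgi or cell exterior gave no call in edgeR (4.79% over all tested genes). Of 15 listed, 14 were tested, 2 had an unadjusted p under 0.05 (19.0% over all tested genes) and 1 passed in DESeq2 (7.68% over all). The median log2 fold change was -0.04 and the range ran from -0.39 to 0.30. Mcfd2, part of the cargo receptor for coagulation factors, had 199 ± 18.4 CPM in PBS and 213 ± 29.1 CPM in GH (SD, n = 6). Prkcsh, the beta subunit gene of glucosidase II and the member that passed in DESeq2 (adjusted p = 0.0376), had 74.4 ± 3.90 and 83.0 ± 2.71 CPM (edgeR log2 fold change 0.16, adjusted p = 0.119).

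In the pumps, channels and luminal buffers of the calcium stores, 13 of 15 genes were tested, 1 fell and 12 did not pass, with a median log2 fold change of -0.02, while 2.52% of all tested genes fell. The 1 was Hspa5, which encodes the chaperone BiP, from 936 ± 230 to 592 ± 76.6 CPM (SD, n = 6; log2 fold change -0.66 ± 0.15 SE, adjusted p = 0.0193). It passed in all 12 refits without a single library. Its adjusted p was 0.0572 without PBS replicate 5 and GH replicate 6 together, and 0.0709 with no filter on low counts. Calr, the calreticulin gene, had 898 ± 105 CPM in PBS and 1020 ± 132 CPM in GH, and Hsp90b1, an endoplasmic reticulum chaperone gene, had 831 ± 101 and 833 ± 81.6 CPM.

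The enzymes named for cutting the nucleobindin 2 precursor were near the floor of detection. Pcsk1, which encodes prohormone convertase 1/3, had 3 counts in all 12 libraries together and Pcsk2 had 1, with at most 1 in any library. Their helpers Scg5 and Pcsk1n had 6 and 0 counts. The widely expressed convertase gene Furin had 113 ± 21.9 CPM in PBS and 131 ± 13.1 CPM in GH (SD, n = 6; log2 fold change 0.21, adjusted p = 0.330). Of the 17 processing genes 13 were tested. In edgeR 0 passed (4.79% over all tested genes) and in DESeq2 0 (7.68%). An unadjusted p under 0.05 was found for 3 (19.0% over all). At these shares few calls would be met among any 13 genes. The median log2 fold change was 0.07. The most abundant were the plasma carboxypeptidase N genes Cpn2 (363 ± 29.6 and 407 ± 71.6 CPM) and Cpn1 (192 ± 17.4 and 187 ± 10.1 CPM). Without GH replicate 6 the convertase gene Pcsk5, named after its values were seen, passed as lower (-0.51, adjusted p = 0.0120), with values of 14.3 ± 2.34 CPM in PBS and 11.7 ± 4.32 CPM in GH over all libraries.

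Of 19 G protein alpha subunit and regulator genes 17 were tested, 1 rose and 16 did not pass, with a median log2 fold change of 0.10, while 2.27% of all tested genes rose. Gnai3, which encodes a G protein alpha subunit bound by nucleobindin 1, had 111 ± 7.65 CPM in PBS and 106 ± 5.23 CPM in GH (SD, n = 6; log2 fold change -0.06 ± 0.06 SE, adjusted p = 0.682). Gna12, an alpha subunit gene of another class, rose from 90.1 ± 14.4 to 120 ± 11.5 CPM (log2 fold change 0.41 ± 0.10, adjusted p = 0.0266), a call that ended in 5 of 12 refits without a single library (PBS replicates 3 and 6 and GH replicates 1, 2 and 5; highest adjusted p 0.0685) and without PBS replicate 5 and GH replicate 6 together (0.0572). Gnas, the stimulatory subunit gene, had 255 ± 10.2 and 293 ± 20.6 CPM (adjusted p = 0.0906), and passed without GH replicate 6 (0.0429) and in DESeq2 (0.0137).

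**Figure D3:**
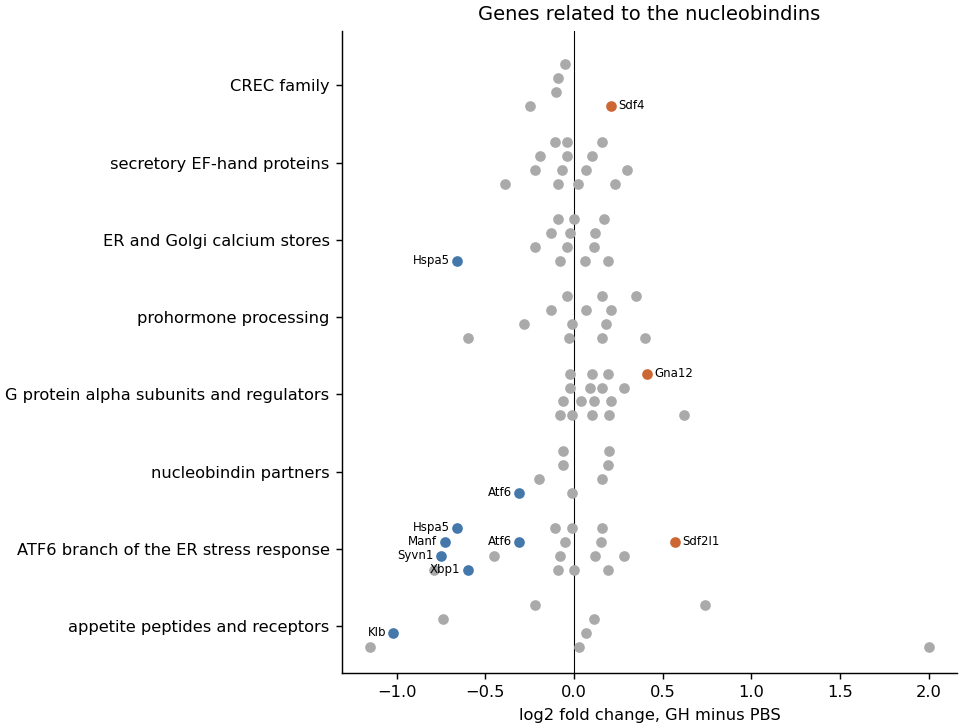
Log2 fold change of GH minus PBS (horizontal axis) of each tested member of the 8 gene lists (rows); named orange points were higher and named blue points lower at an adjusted p under 0.05, grey points did not pass, and the height within a row carries no value. Most points lie within 0.5 of 0, and the ATF6 branch holds the most named points, with 5 lower and 1 higher.

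Of 9 genes whose proteins have been described as partners of nucleobindins, 8 were tested, 1 fell and 7 did not pass (median log2 fold change -0.03), while 2.52% of all tested genes fell. The 1 was Atf6, the sensor of endoplasmic reticulum stress whose cleavage nucleobindin 1 has been described to restrain in cultured cells. It went from 92.1 ± 9.36 to 74.2 ± 5.30 CPM (SD, n = 6; log2 fold change -0.31 ± 0.07 SE, adjusted p = 0.0230). It missed the threshold in 4 of 12 refits without a single library (PBS replicate 4 and GH replicates 1, 2 and 3; highest adjusted p 0.0640). Erap1, an aminopeptidase gene whose protein binds nucleobindin 2, had 139 ± 16.3 CPM in PBS and 133 ± 9.72 CPM in GH.

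The ATF6 branch of the endoplasmic reticulum stress response held the most calls of the 8 lists. Of 19 members, all tested, 1 rose, 5 fell and 13 did not pass, against 2.27% of all genes that rose and 2.52% that fell. The median log2 fold change was -0.08. In DESeq2 8 members passed (7.68% over all), and 10 had an unadjusted p under 0.05 (19.0% over all tested genes). Besides Hspa5 and Atf6, Syvn1, which encodes a ubiquitin ligase of protein degradation at the endoplasmic reticulum, fell from 24.1 ± 7.03 to 14.3 ± 1.35 CPM (SD, n = 6; adjusted p = 0.0202). The other 2, named after their values were seen, were the transcription factor gene Xbp1 (182 ± 37.2 to 121 ± 20.4 CPM, adjusted p = 0.0245) and Manf, a secreted stress protein gene (109 ± 29.1 to 65.7 ± 11.9 CPM, adjusted p = 0.0407). Sdf2l1, which encodes a companion of BiP, rose from 24.5 ± 5.69 to 36.5 ± 5.33 CPM (adjusted p = 0.0279), so the members did not move one way.

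With 1 library left out, 2 to 6 genes of this list were called: 2 without PBS replicate 4, GH replicate 1 or GH replicate 2, and 3 without PBS replicate 2, GH replicate 3 or GH replicate 4. Calls of Hspa5 and Syvn1 held in all 12 such fits, with highest adjusted p of 0.0457 and 0.0497. Those of Xbp1, Sdf2l1 and Manf were lost in 6, 8 and 11 of them (highest adjusted p 0.0582, 0.0676 and 0.0862). Syvn1 missed the threshold with no filter on low counts (0.057), with the replicate number as a block (0.0632) and without PBS replicate 5 and GH replicate 6 together (0.0603). Hspa5 missed it with no filter (0.0709) and without those 2 libraries (0.0572). In PBS the values of these genes were widely spread, Hspa5 from 600 to 1220 CPM and Syvn1 from 15.6 to 30.8 CPM, and in GH they lay closer together, from 463 to 684 and from 12.7 to 16.0 CPM.

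Among peptides and receptors of appetite, the field in which nesfatin-1 is best known, most genes were not measurable in liver: of 27 listed, 18 missed the filter on low counts, none of them with more than 7 counts in all libraries together. Of the 9 tested, 1 fell and 8 did not pass, while 2.52% of all tested genes fell. The median log2 fold change was 0.03, with a range of -1.15 to 2.00. Its ends were Fgf21, at 0.911 and 0.408 CPM, and Lcn2, with 368 CPM in GH replicate 6 against 37.7 to 68.8 in the other GH libraries. In DESeq2 2 passed (7.68% over all), Klb and Lepr (log2 fold change -0.74, adjusted p = 0.0186). An unadjusted p under 0.05 was found for 4 (19.0% over all). Fgf21, Lcn2 and Lepr were named after their values were seen. A single call in lists of this size is not a result about the list. Klb, which encodes beta-klotho, the co-receptor for the hormone FGF21, fell from 60.2 ± 9.15 to 29.8 ± 3.37 CPM (SD, n = 6; log2 fold change -1.02 ± 0.10 SE, adjusted p = 2.23e-05). Its GH values, 27.1 to 36.0 CPM, all lay below the PBS values of 48.4 to 71.1 CPM, while 3.18% of all tested genes had groups without overlap. The call held in all 12 refits without a single library. The adiponectin receptor genes Adipor2 and Adipor1 had 633 ± 140 and 104 ± 8.09 CPM in PBS and 542 ± 92.7 and 109 ± 12.1 CPM in GH.

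The genes whose levels followed Nucb2 most closely were ranked by Pearson's r of log2 CPM over the 12 libraries, which share the group difference that chose Nucb2, so the values are descriptive. Of 12859 genes with a mean of at least 1 CPM, the highest r was that of Ugt2b37 (0.98, Spearman's rho 0.92), a glucuronosyltransferase gene that went from 0.821 ± 0.239 to 6.40 ± 2.23 CPM (SD, n = 6). It was followed by Aadat, an aminotransferase gene of the kynurenine and lysine pathways (r 0.96, rho 0.81; 95.8 ± 7.62 and 172 ± 16.6 CPM), and Ugt2b38 (r 0.96, rho 0.92; 1.44 ± 1.39 and 21.9 ± 4.44 CPM). Then came Oxct1, a gene of ketone body use (r 0.96, rho 0.89; 6.29 ± 0.852 and 14.3 ± 2.41 CPM), and C8b, a gene of terminal complement (r 0.96, rho 0.97; 367 ± 76.2 and 711 ± 39.2 CPM). Ugt2b37 and Ugt2b38 are near copies of other Ugt2b genes, among which reads may have been divided. GH replicate 6 was the lowest GH library of Nucb2, Ugt2b37, Ugt2b38, Aadat and C8b, but not of Oxct1, for which it had 13.4 CPM in a range of 12.6 to 19.2.

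For Nucb1 the most similar were Neu1, the lysosomal sialidase gene (r 0.95, rho 0.85; 32 ± 4.87 CPM in PBS and 40.1 ± 4.87 in GH), Slc2a8, a sugar transporter gene (r 0.94, rho 0.92; 8.52 ± 1.23 and 10.6 ± 1.77 CPM), and Gcgr, the glucagon receptor gene (r 0.94, rho 0.91; 171 ± 8.20 and 184 ± 9.17 CPM). Next were Apoa1, the main apolipoprotein gene of high-density lipoprotein (r 0.94, rho 0.87), and Lrpap1, a chaperone gene for lipoprotein receptors (r 0.93, rho 0.87). GH replicate 5 was at the top of these 5 genes, level with GH replicate 1 for Gcgr, as it was with GH replicate 1 for Nucb1 itself, and PBS replicate 4 was the lowest library of all of them. GH replicate 1 came next for Neu1, Slc2a8 and Apoa1, but for Lrpap1 it lay below GH replicate 3 (42.5 and 43.0 CPM). When each group's mean was taken off first, so that only the spread among livers counted, Nucb1 kept Neu1 and Slc2a8 among its 3 most similar genes (r 0.93 and 0.91), behind Upb1, a pyrimidine breakdown gene (r 0.96). Nucb2 had none of its former 5: the most similar were then Adpgk (r 0.92), Itpa (r 0.90) and Ppil3 (r 0.90), genes of glucose phosphorylation, nucleotide clean-up and peptide bond isomerisation. Their levels were close between the groups, with log2 fold changes of -0.11, -0.15 and -0.08. These coefficients, too, are descriptive: they are the highest among 12859 genes over 12 libraries, and none was tested.

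**Figure D4:**
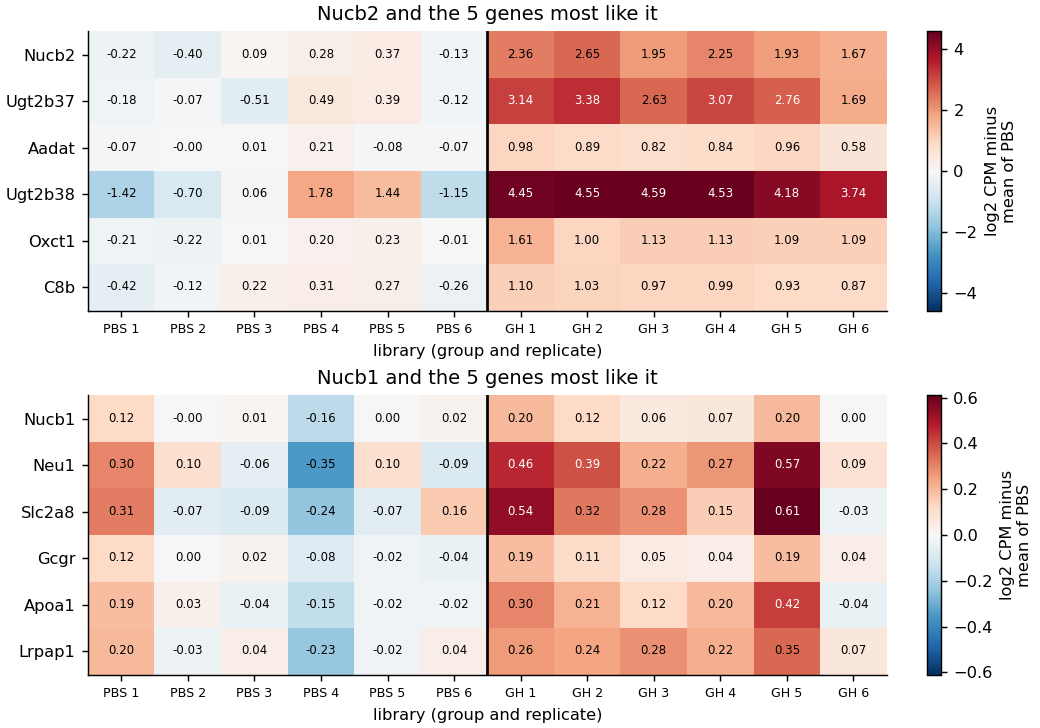
Log2 CPM minus the mean of the 6 PBS libraries (colour and printed value) for Nucb2 and Nucb1 and the 5 genes most like each (rows) in the 12 libraries (columns, with a line between the groups). In the Nucb2 panel all GH cells lie between 0.58 and 4.59; in the Nucb1 panel PBS replicate 4 is the lowest library in every row, and GH replicate 1 is 0.26 in the Lrpap1 row, below GH replicate 3 at 0.28.

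Neighbouring genes were compared to see whether the difference in Nucb2 extended along the chromosome. None of the 10 nearest tested genes, 5 on each side of Nucb2, passed in edgeR (4.79% over all tested genes) or DESeq2 (7.68%). None had an unadjusted p under 0.05 (19.0% over all). At these shares few calls would be met among any 10 genes. Their log2 fold changes lay between -0.21 and 0.16. The nearest upstream, Pik3c2a, a lipid kinase gene that starts 60.9 kb away on the other strand, had 104 ± 12.7 CPM in PBS and 95.8 ± 6.05 CPM in GH (SD, n = 6). The nearest tested gene downstream, the ribosomal protein gene Rps15a, starts 1610 kb away and had 62.0 ± 8.12 and 66.0 ± 5.34 CPM. The farthest of the 5 on that side starts 2030 kb away, so the downstream side held no close tested neighbour.

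Around Nucb1 none of the 10 nearest tested genes passed in edgeR (4.79% over all tested genes) or DESeq2 (7.68%) either. An unadjusted p under 0.05 was found for 3 (19.0% over all). Log2 fold changes of the 10 ran from -1.15 to 0.23. Ppp1r15a, the stress phosphatase subunit gene next upstream, had 10 ± 0.996 CPM in PBS and 7.92 ± 1.58 CPM in GH (adjusted p = 0.143), and passed without GH replicate 5 (0.0440). Dhdh, a dehydrogenase gene next downstream, had 133 ± 23.9 and 156 ± 9.13 CPM (adjusted p = 0.227), and passed without PBS replicate 2 (0.0440). The value of -1.15 was that of Fgf21, the hormone gene 105 kb upstream, named after its values were seen, with 0.911 ± 0.389 CPM in PBS and 0.408 ± 0.218 CPM in GH (adjusted p = 0.118). It passed without PBS replicate 5 (-1.36, adjusted p = 0.0188).

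**Figure D5:**
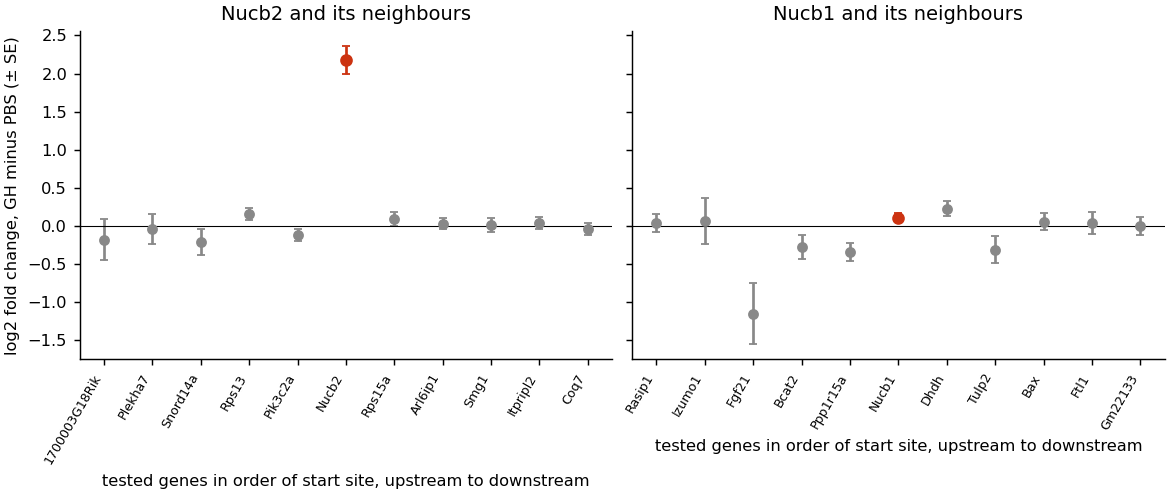
Log2 fold change of GH minus PBS with its SE (vertical axis) for Nucb2 and Nucb1 (red) and the 5 nearest tested genes on each side (grey), in the order of their start sites from upstream to downstream and not to scale. Nucb2 stands at 2.18 among neighbours between -0.21 and 0.16, and Nucb1 at 0.11 among neighbours between -1.15 and 0.23.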

How the data were processed

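Per the labels' protocols, 250 ng of total RNA per liver was depleted of ribosomal RNA, made into stranded libraries with 12 cycles of amplification and read for 125 cycles from each end. The submitters' processing notes name STAR 2.4.0i and mm10. Which program, annotation and strand setting were used for counting was not stated there. The authors deposited raw counts of exonic reads per gene, without normalization, for 12 libraries.

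The test was that of edgeR 4.0.16 (R 4.3.3): filterByExpr (minimum count 10), TMM scaling, and a robust quasi-likelihood F test with the group as the only term, two-sided, with Benjamini-Hochberg adjustment over 14235 genes and a threshold of 0.05. SE is the absolute log2 fold change over the square root of F. The fit was tested on simulated data. Log2 CPM used a prior count of 2. Of 38087 identifiers 36308 matched GENCODE M21. Length is that of the longest APPRIS principal transcript, or else the longest transcript. The 95% intervals were made from the log2 fold change, its SE and the t distribution, so they include the spread between livers.

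The genes, lists and tests were chosen with earlier results of these data known. Named genes are the members, up to 3 called per direction and the 2 most abundant not called in each list, 5 preset genes (Calu, Pcsk1, Pcsk2, Furin and Gnai3), the most similar genes, and the nearest or called neighbours. Alternatives were DESeq2 1.42.0 (size factors, and its Wald test), scaling by totals, no filter, a prior count of 0.5, each library left out, the replicate number as a block and, added after seeing the data, leaving out the 2 outlying libraries and another gene length.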

Additional observations from a re-analysis of the deposited data

Results flagged for a closer look

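In 9 of 100 groups of 6 libraries tested, 1 library stood apart from the other 5 by Dixon's criterion, which chance meets in about 1 group in 20. Neither Nucb2 nor Nucb1 was among them. Of the genes most like Nucb2, Oxct1 had 19.2 CPM in GH replicate 1, against 12.6 to 13.8 in the other GH libraries, and Aadat had 111 CPM in PBS replicate 4, against 90.4 to 96.2. The Nucb1 neighbour Dhdh had 173 CPM in GH replicate 5, against 148 to 156. Erap1 had 107 CPM in PBS replicate 5, against 137 to 153. In GH replicate 6 Adipor2 had 364 CPM, against 541 to 633, and Lcn2, an acute phase gene on the appetite list named after its values were seen, had 368 CPM, against 37.7 to 68.8. The exocrine pancreas marker sum was 9.23 CPM in GH replicate 6, against 17.7 to 22.7. The gastric marker sum was 5.49 CPM in GH replicate 6, against 1.89 to 2.74, and 4.09 CPM in PBS replicate 5, against 0.704 to 1.46.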

How the results depend on the processing

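The log2 fold changes of Nucb2 and Nucb1 and their log2 ratio kept their direction and moved by less than the spread between replicates under every alternative run; with 1 library left out they ran from 2.06 to 2.26, 0.08 to 0.13 and 1.92 to 2.11. Over all genes 682 calls became 1072 in DESeq2, and 434 to 854 with 1 library left out. The 323 higher genes became 211 with scaling by totals, 506 in DESeq2, 518 without PBS replicate 5 and GH replicate 6, and 193 to 410 with 1 library left out; the 359 lower became 658, 566 in DESeq2, and 241 to 444. Calls per list moved as follows. CREC family: 0 with scaling by totals or no filter, 0 to 1 with 1 library left out. Secretory EF-hand: 1 in DESeq2. Calcium stores: 2 with scaling by totals, 0 with no filter or without both outlying libraries, 1 to 2 with 1 left out. Prohormone processing: 1 without both, 0 to 1. G protein: 2 in DESeq2, 0 to 2. Partners: 0 to 1. ATF6 branch: 7 with scaling by totals, 8 in DESeq2, 1 with no filter, 4 without both, 2 to 6 with 1 left out. Appetite: 2 in DESeq2 and without both, 1 to 2. The cause of these shifts was not tested. Small differences around 0 changed sign: with scaling by totals Hsp90b1 (-0.06) and Upb1 (-0.04); without both, Cpn1 (0.01); and with 1 library left out Hsp90b1 (-0.06 to 0.05), Upb1 (-0.03 to 0.04), Cpn1 (-0.07 to 0.01) and Calu (-0.09 to 0.00). Replicate numbers did not pair the samples: deviations of same-numbered libraries correlated from -0.17 to 0.16, and 1 of 6 PBS libraries correlated best with its own number. With the replicate block 391 genes were called, 180 higher and 211 lower, with 0 calls in the CREC family, 0 in partners, 1 in the ATF6 branch and 2 in appetite, and log2 fold changes of 2.16 for Nucb2 and 0.11 for Nucb1. At 48 to 84 counts of Nucb2 per PBS library, counting error alone is 12.3%, which limits differences among PBS livers.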
